A study of Mus musculus with 4 samples.

Results

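Ugt2b34, Ugt2b35, Ugt2b36, Ugt2b37, Ugt2b38 and Ugt2b5 encode UDP-glucuronosyltransferases of the 2B subfamily. The array held 39429 probes of 60 bases, of which 31372 matched 22371 genes. It carried 7 probes for the 6 Ugt2b genes named here, with a pair of probes for Ugt2b35. These 6 genes were chosen by their scaled signals on the 4 arrays, because Ugt2b5, Ugt2b36 and Ugt2b37 had far lower signals in both azoxymethane (AOM) pools than in the vehicle pools. The AOM to vehicle values of the members are therefore a description of that choice and not evidence for it. The data were 4 one-color microarrays hybridized with colon RNA, 1 array for each combination of genotype and treatment, so no difference has a replicate check or a p-value. The vehicle pools came from Pla2g3+/+ or Pla2g3-/- mice given saline, and the AOM pools from the same genotypes given AOM, a carcinogen that induces colon tumors, at 10 mg/kg into the peritoneum once a week for 6 weeks. Every mouse was male, 42 weeks old and of strain background B6.129 (n3), and AOM colons were collected 28 weeks after dosing ended. Each pool mixed 3 to 5 mice according to the deposited description, which calls the AOM tissue colorectal cancer, while the legend of the study's array figure gives whole descending colon and pools of 4 mice. Pla2g3 encodes group III secreted phospholipase A2, which releases fatty acids and lysophospholipids from membranes and is deleted in the whole animal.

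UDP-glucuronosyltransferases sit in the membrane of the endoplasmic reticulum and join glucuronic acid, taken from UDP-glucuronate, to steroids, bile acids, bilirubin, drugs and carcinogen metabolites. The conjugates are water soluble and leave the cell through transporters into bile, blood or the gut lumen, where β-glucuronidase can release the parent compound again. The liver is the richest source of the 2B enzymes, and the mature cells that line the intestine carry a set of their own. The active metabolite of AOM, methylazoxymethanol, is among the compounds that can travel as a glucuronide.

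The 7 probe sequences are printed to show how alike the probes of these closely related genes are. Capitals mark runs of at least 12 bases that a probe shares with another member's probe.
Ugt2b36: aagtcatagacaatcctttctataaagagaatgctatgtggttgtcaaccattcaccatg
Ugt2b5: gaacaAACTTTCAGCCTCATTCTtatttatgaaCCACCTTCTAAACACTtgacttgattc
Ugt2b37: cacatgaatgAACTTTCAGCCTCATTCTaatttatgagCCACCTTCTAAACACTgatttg
Ugt2b38: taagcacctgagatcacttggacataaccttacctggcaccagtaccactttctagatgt
Ugt2b35 brighter probe: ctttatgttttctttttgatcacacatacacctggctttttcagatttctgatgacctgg
Ugt2b35 dimmer probe: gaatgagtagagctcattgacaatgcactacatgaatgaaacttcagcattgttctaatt
Ugt2b34: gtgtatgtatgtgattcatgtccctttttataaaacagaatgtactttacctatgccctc

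All 7 probes lie on chromosome 5 of the mm9 build given by the array files, the Ugt2b36 probe at chr5:87495455-87509913, the Ugt2b5 probe at chr5:87554155-87554214, the Ugt2b37 probe at chr5:87669707-87669766, the Ugt2b38 probe at chr5:87839345-87839404 and the Ugt2b34 probe at chr5:87318849-87318908, all on the minus strand. The brighter Ugt2b35 probe lies at chr5:87441721-87441780 and the dimmer at chr5:87440554-87440613, both on the plus strand. An mm9 gene annotation was not used here, so the exons under the probes are not stated. The coordinates of the Ugt2b36 probe span 14459 bases although the probe holds 60. Its accessions name both Ugt2b36 and Ugt2b37, so its signal may come from either transcript. The probes of Ugt2b5 and Ugt2b37 were the most alike, with 46 of 55 aligned bases equal and a longest shared run of 18 bases. The dimmer Ugt2b35 probe matched the Ugt2b37 probe at 26 of 32 aligned bases with a longest shared run of 11 bases. The probes of Ugt2b36, Ugt2b38 and Ugt2b34 and the brighter Ugt2b35 probe shared no run longer than 7 bases with any other Ugt2 probe, and no other probe on the array shared a run of 20 bases with a member's probe. Probes were compared with probes and not with the members' transcripts. Cross-hybridization was therefore not tested for any of the 7 probes, Ugt2b5 and Ugt2b37 included.

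Values below are processed signals divided by the 75th percentile of the non-control spots of their array, here called the level. That percentile was 646 and 649.8 on the arrays labelled Pla2g3+/+ and Pla2g3-/- vehicle, and 1309 and 1169 on the corresponding AOM arrays, so the unscaled AOM signals were brighter across the array. Left unscaled, the median AOM to vehicle difference over all probes was higher by 1.05 on the log2 scale with the Pla2g3+/+ label and by 0.83 with the Pla2g3-/- label. Small decreases of single probes then turned sign. Between 64.8% and 69.4% of the 43020 non-control spots per array were well above background, as called by the scanner software, and no spot was saturated. Replicate spots of the same probe on an array had a median SD of 0.06 to 0.07 on the log2 scale, which covers spot noise but not differences between mice or pools.

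Pla2g3 itself did not follow the genotype labels. Its brightest probe had levels of 0.531 on the array labelled Pla2g3+/+ vehicle, 0.656 on that labelled Pla2g3-/- vehicle, 0.232 on that labelled Pla2g3+/+ AOM and 1.40 on that labelled Pla2g3-/- AOM. The level was thus 1.23-fold higher on the Pla2g3-/- array with vehicle and 6.01-fold higher with AOM, and the other probes were also higher on the arrays labelled Pla2g3-/-, by 1.06-fold and at least 2.31-fold with vehicle and by 6.66-fold and 2.76-fold with AOM. The sources used here do not say whether these probes lie in the deleted part of the gene. Genotypes below are therefore those of the labels, and each direction between genotypes rests on them.

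Ugt2b36, Ugt2b5, Ugt2b37 and Ugt2b38 had clear signals on both vehicle arrays and far lower signals on both AOM arrays, below background for all of them but Ugt2b38. Ugt2b5 had levels of 1.13 and 1.56 on the arrays labelled Pla2g3+/+ and Pla2g3-/- vehicle and 0.00258 and 0.00307 on the corresponding AOM arrays. Neither AOM spot of Ugt2b5 was well above background, and the software had replaced both by a surrogate for a signal too low to measure. Where the dim side was below background, a fold was taken as a lower bound, against the higher of the probe's own signal and the lowest signal well above background on that array. On this basis Ugt2b5 was at least 89.5-fold lower after AOM in the Pla2g3+/+ pools and at least 106.9-fold lower in the Pla2g3-/- pools.

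Ugt2b36 had levels of 0.541 and 0.680 with vehicle and 0.00280 and 0.00691 after AOM, in the order Pla2g3+/+ and Pla2g3-/-. Both AOM values were below background, which made Ugt2b36 at least 43.0-fold lower in the Pla2g3+/+ pools and at least 46.5-fold lower in the Pla2g3-/- pools. Ugt2b36, like Ugt2b5, is known as an abundant UDP-glucuronosyltransferase of mouse liver. Ugt2b37 had levels of 0.542 and 0.664 with vehicle, and of 0.00869 and 0.00847 after AOM, again both below background. It was at least 43.2-fold and at least 45.4-fold lower in the Pla2g3+/+ and Pla2g3-/- pools. The order of the AOM values among Ugt2b36, Ugt2b5 and Ugt2b37, and between genotypes, carries no information because all of them were below background.

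Ugt2b38 was the member of this set that remained measurable on all 4 arrays. Its levels were 2.01 and 2.71 with vehicle and 0.0671 and 0.0386 after AOM. The difference was 29.9-fold in the Pla2g3+/+ pools and 70.3-fold in the Pla2g3-/- pools, downward in both. The AOM signals of Ugt2b38, 87.8 and 45.1, stood above the lowest signals called well above background on those arrays, 16.4 and 17.1, whereas those of Ugt2b37, 11.4 and 9.90, stood below them. The scanner software gave an error of 10.0% to 14.7% of the signal for every member spot above background, small beside these differences.

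Ugt2b35 differed less. The brighter probe had levels of 0.788 and 0.804 with vehicle and 0.553 and 0.342 after AOM, a difference of -0.51 on the log2 scale in the Pla2g3+/+ pools and of -1.24, or 2.35-fold, in the Pla2g3-/- pools. The dimmer probe had levels of 0.117 and 0.121 with vehicle and 0.119 and 0.0540 after AOM, a log2 difference of 0.02 in the Pla2g3+/+ pools and of -1.16 in the Pla2g3-/- pools. Both probes were over 2-fold lower after AOM in the Pla2g3-/- pools as scaled here, but not without scaling, at -0.39 for the brighter and -0.31 for the dimmer, nor after normexp and quantile normalization, at -0.98 and -0.58. In the Pla2g3+/+ pools neither differed by 2-fold, and the brighter probe turned to 0.51 without scaling.

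Ugt2b34 showed the opposite order between genotypes. It had levels of 21.9 and 21.0 with vehicle, 6.90 after AOM in the Pla2g3+/+ pool and 17.1 after AOM in the Pla2g3-/- pool. It was 3.18-fold lower after AOM in the Pla2g3+/+ pools and 1.23-fold lower in the Pla2g3-/- pools. The Pla2g3+/+ log2 difference of -1.67 was -0.65 without scaling and -0.89 when scaled by pan-epithelial markers, both under 2-fold. The Pla2g3-/- direction depended on the scaling, with a log2 difference of -0.30 as given, 0.16 after quantile normalization and 0.55 without scaling. Its signals, from 9030 to 19991, stayed far above background on every array, as did those of the brighter Ugt2b35 probe, from 399 to 724.

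**Figure D1:**
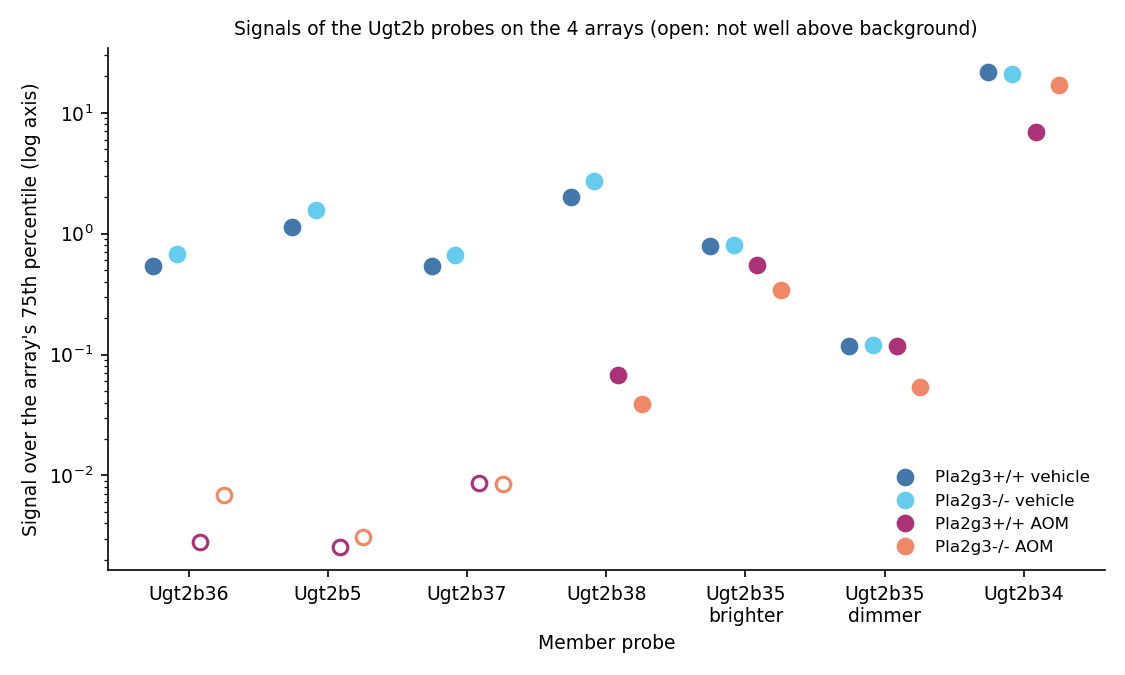
Processed signal of each member probe over the 75th percentile of its array (log axis) on the 4 arrays, with open circles for spots not well above background. Ugt2b36, Ugt2b5 and Ugt2b37 lie between 0.541 and 1.56 on the vehicle arrays and below background on both AOM arrays, Ugt2b38 goes from 2.01 and 2.71 to 0.0671 and 0.0386, and Ugt2b34 stays between 6.90 and 21.9.

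Counted against a 2-fold threshold, 5 of the 7 probes were lower after AOM in the Pla2g3+/+ pools, 3 of them as bounds, and none was higher. Among all probes with a value in that comparison, 21.8% were over 2-fold lower and 14.9% higher. In the Pla2g3-/- pools 6 of the 7 were lower, 3 of them as bounds, where 15.6% of all probes were lower and 11.2% higher. The members' median log2 difference was -4.90 in the Pla2g3+/+ pools and -5.50 in the Pla2g3-/- pools, beside medians of -0.18 and -0.07 over all probes. Since these comparisons chose the members, nothing is read from the counts. Of 15471 genes well above background on both vehicle arrays, 175, or 1.13%, were below background on both AOM arrays, and Ugt2b5, Ugt2b36 and Ugt2b37 were among them.

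The comparisons between genotypes use the same signals by which the members were chosen, so they are not independent of that choice. Between genotypes with vehicle, none of the 7 probes differed by 2-fold, where 1.53% of all probes were lower and 2.12% higher on the array labelled Pla2g3-/-. The Ugt2b5 level was 1.39-fold higher on that array, that of Ugt2b38 1.35-fold, that of Ugt2b36 1.26-fold and that of Ugt2b37 1.23-fold. These 4 probes differed by 0.29 to 0.48 on the log2 scale, more than the 0.09 expected as SD of a difference between spots from the noise within arrays. Ugt2b34, at 0.958 of its Pla2g3+/+ level, and the Ugt2b35 probes, at 1.02 and 1.03, differed by less than that spread. The scanner software gave each vehicle spot of those 4 probes an error of 10.0% of its signal, which is larger than that spot noise. Without a second pool per genotype, the differences cannot be told apart from variation between pools. After AOM, 4 probes could be compared between genotypes. Ugt2b34 was 2.48-fold higher on the array labelled Pla2g3-/-, the dimmer Ugt2b35 probe was 2.20-fold lower, the brighter Ugt2b35 probe stood at 0.618 and Ugt2b38 at 0.576 of the Pla2g3+/+ level. These sizes depended on the scaling. Scaled by pan-epithelial markers, the log2 differences were 0.34 for Ugt2b34, -2.11 and -1.67 for the dimmer and brighter Ugt2b35 probes and -1.77 for Ugt2b38. The dimmer Ugt2b35 probe was at -0.50 after normexp and quantile normalization. In that comparison 12.1% of all probes were over 2-fold lower and 14.1% higher. Ugt2b36, Ugt2b5 and Ugt2b37 gave no ratio because both sides were below background.

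**Figure D2:**
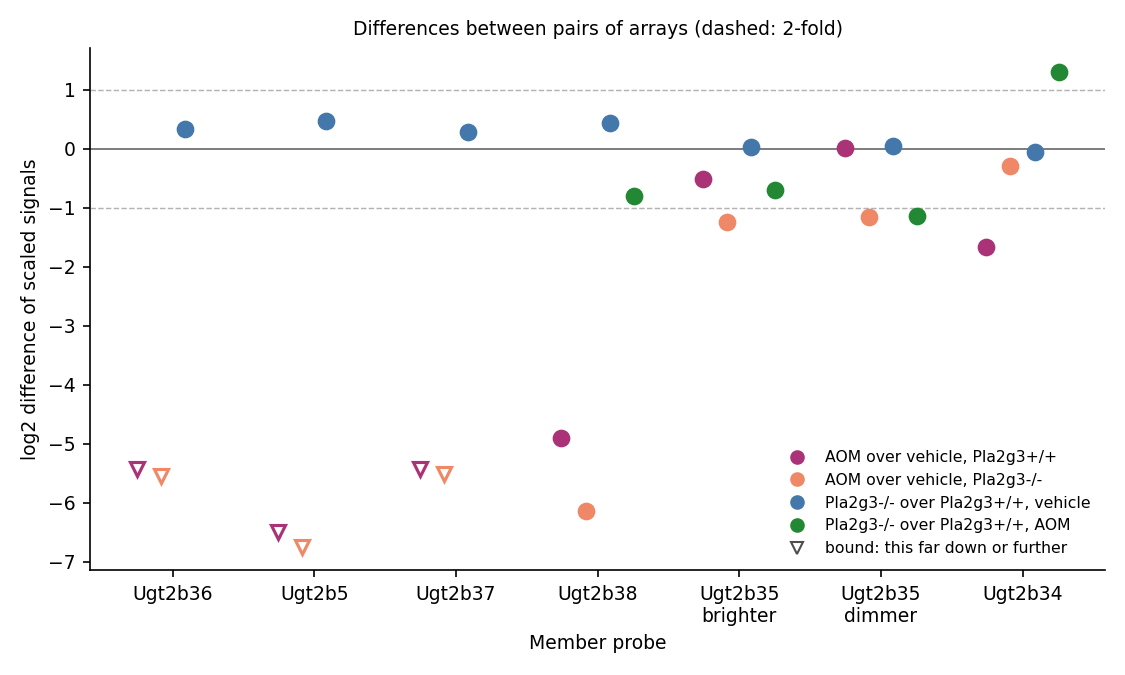
Log2 difference of scaled signals for each member probe in the 4 comparisons between arrays, with open triangles for bounds and dashed lines at 2-fold. Ugt2b36, Ugt2b5, Ugt2b37 and Ugt2b38 lie at -4.90 or below in both AOM comparisons and between 0.29 and 0.48 between genotypes with vehicle, while Ugt2b34 and Ugt2b35 lie between -1.67 and 1.31 throughout.

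Ugt2b36, Ugt2b5, Ugt2b37 and Ugt2b38 were next to each other among the measurable Ugt2 genes of the cluster. By the mm9 positions of the probes, the order was Ugt2b34, Ugt2b1, Ugt2b35, Ugt2b36, Ugt2b5, Ugt2b37, Ugt2a3, Ugt2b38 and Ugt2a1 over 569.9 kb. Ugt2b1, Ugt2a3 and Ugt2a1 were below background on all 4 arrays and so gave no difference. Ugt2b34 and Ugt2b35, the members that kept a signal of the same order, lay at the side of the cluster with the lower coordinates. Ugt2b35 is the member with its probes on the plus strand.

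**Figure D3:**
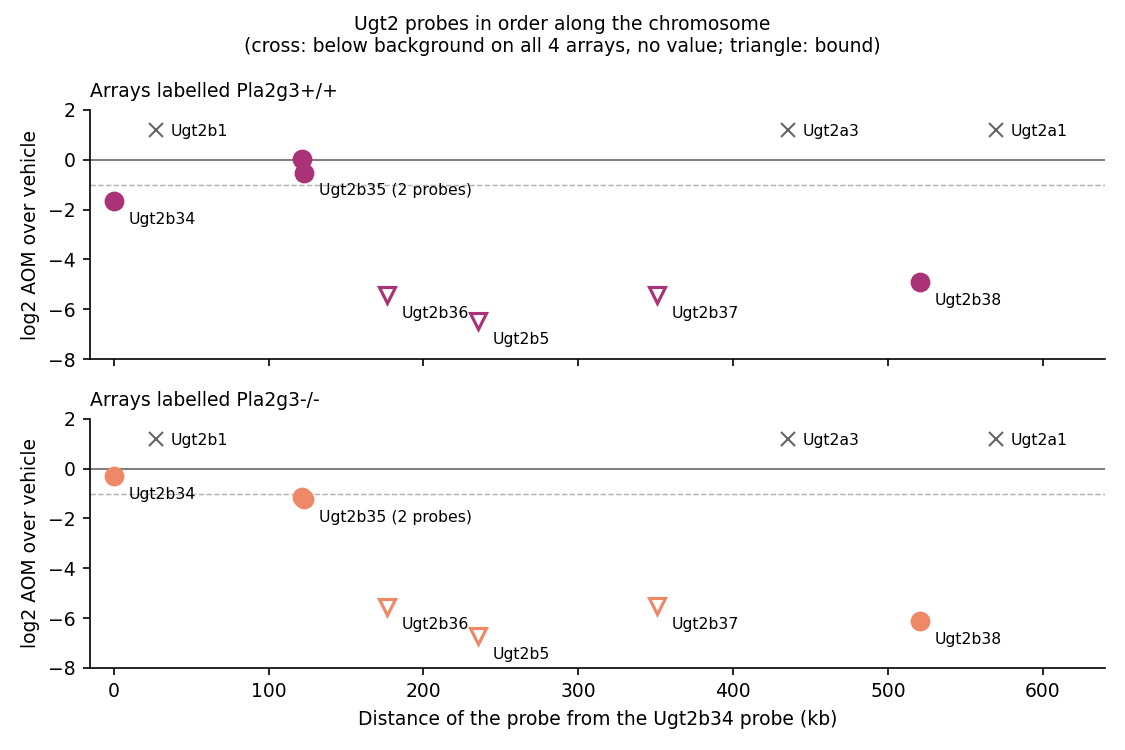
Log2 difference between AOM and vehicle for the Ugt2 probes against their distance in kb from the Ugt2b34 probe, for the arrays of each genotype label, with triangles for bounds and crosses for genes below background on all 4 arrays. The 4 members from Ugt2b36 to Ugt2b38 lie at -4.90 or below in both panels, and Ugt2b34 and Ugt2b35 at -1.67 or above.

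Genes outside the Ugt2 family near the cluster on chromosome 5 went in both directions. Of 16 listed neighbors, 11 had a value in the Pla2g3+/+ pools, with 3 lower and 1 higher after AOM, where 22.4% of all genes were over 2-fold lower and 15.1% higher. In the Pla2g3-/- pools 8 had a value, with 2 lower and 1 higher, where 15.1% of all genes were lower and 9.65% higher. The list medians were 0.43 and 0.21, beside the whole-array medians given above. The nearest of them by function are the sulfotransferases, which conjugate many of the same substrates. Sult1b1 had levels of 25.2 and 22.9 with vehicle and 4.01 and 22.5 after AOM, a log2 difference of -2.65 in the Pla2g3+/+ pools and -0.03 in the Pla2g3-/- pools. Sult1d1, with levels of 11.0 and 10.3 and then 0.118 and 4.12, differed by -6.55 and -1.33. Sult1e1, the estrogen sulfotransferase, had levels of 0.111 and 0.0332 with vehicle, was below background after AOM in the Pla2g3+/+ pool and had a level of 0.201 after AOM in the Pla2g3-/- pool. The sulfotransferases thus had lower signals in the Pla2g3+/+ AOM pool, and in the Pla2g3-/- pools they went in different directions.

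The 250 bases before the transcription start were compared next, since they hold much of what controls a gene. Promoter sequences were taken from RefSeq on GRCm38.p6, a later build than the mm9 of the probes, and all 6 members matched by symbol. The promoters of Ugt2b37 and Ugt2b38 had 90% of 250 bases identical in a global alignment, those of Ugt2b5 and Ugt2b38 84.8%, and those of Ugt2b5 and Ugt2b37 80%. The promoter of Ugt2b36 had 66% to 66.4% identity with these, and every pair with Ugt2b34 or Ugt2b35 lay between 57.6% and 67.2%. The promoters of the undetected Ugt2b1, Ugt2a3 and Ugt2a1 lay between 55.6% and 62.8% of the 4, so identities in this range also occurred between the 4 and genes without a signal.

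**Figure D4:**
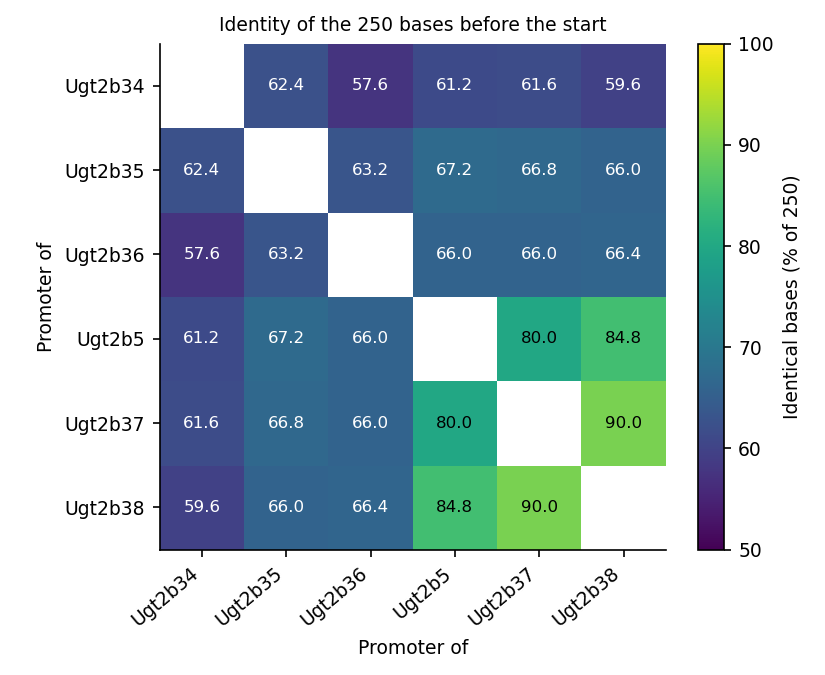
Identical bases in a global alignment, in % of 250, between the promoters of the 6 members. Ugt2b5, Ugt2b37 and Ugt2b38 form a block of 80% to 90%, and all other pairs lie between 57.6% and 67.2%.

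A run of 22 bases, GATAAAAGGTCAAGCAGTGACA, was common to the promoters of Ugt2b36, Ugt2b5, Ugt2b37 and Ugt2b38. It was found by comparing these 4 promoters after their signals were known. On either strand, it was held by 4 of 32851 RefSeq promoters of mouse genes, or 0.0122%, and these were the promoters of the same 4 genes. That these 4 hold the run was fixed by how it was found, so nothing is read from this share. The 100 bases before the start are printed for the 6 members to show where the run lies, with the run in capitals, each on GRCm38.p6 and written 5′ to 3′ along the gene's strand.
Ugt2b36 promoter, chr5:87092556-87092655, minus strand: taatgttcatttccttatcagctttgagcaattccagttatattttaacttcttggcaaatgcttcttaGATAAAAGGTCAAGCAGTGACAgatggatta
Ugt2b5 promoter, chr5:87140341-87140440, minus strand: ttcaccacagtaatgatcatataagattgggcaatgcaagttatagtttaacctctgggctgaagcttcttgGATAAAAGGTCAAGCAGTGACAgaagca
Ugt2b37 promoter, chr5:87254789-87254888, minus strand: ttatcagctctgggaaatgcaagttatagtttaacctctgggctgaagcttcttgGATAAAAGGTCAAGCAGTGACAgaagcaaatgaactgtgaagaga
Ugt2b38 promoter, chr5:87424204-87424303, minus strand: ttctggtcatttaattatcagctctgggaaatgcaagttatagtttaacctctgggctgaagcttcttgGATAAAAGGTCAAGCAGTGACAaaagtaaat
Ugt2b35 promoter, chr5:87000760-87000859, plus strand: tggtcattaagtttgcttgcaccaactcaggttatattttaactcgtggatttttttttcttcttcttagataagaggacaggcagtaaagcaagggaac
Ugt2b34 promoter, chr5:86906938-86907037, minus strand: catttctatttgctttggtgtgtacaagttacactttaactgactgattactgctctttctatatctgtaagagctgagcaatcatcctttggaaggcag

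The run began 31 bases before the start in Ugt2b36 and Ugt2b38, 28 bases before it in Ugt2b5 and 45 bases before it in Ugt2b37. At the best gapless match to the run, the Ugt2b35 promoter had 16 of 22 bases equal, at the same distance of 31 bases, and the Ugt2b34 promoter had 12 of 22. Binding elements of the intestinal and hepatic regulators were also searched on both strands of the 250 bases. None of the 6 promoters held the CDX element TTTATG, the HNF4 element CAAAGTCCA, the FXR inverted repeat or the C/EBP element TTGCGCAA, which 10.8%, 0.384%, 0.00609% and 0.164% of all promoters held. The absence of these letters from these windows says nothing about binding of the factors, and no array value bears on the shared run.

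Of 9 further genes of the UDP-glycosyltransferase family on the array, 6 had a value in the Pla2g3+/+ pools, with 4 over 2-fold lower and none higher after AOM, where 22.4% of all genes were lower and 15.1% higher. In the Pla2g3-/- pools 4 had a value, with 2 lower and none higher, where 15.1% of all genes were lower and 9.65% higher. These 9 included Ugt2b1 of the 2B subfamily and Ugt3a1, Ugt3a2 and Ugt8a, enzymes that use sugars other than glucuronic acid, and Ugt3a1 and Ugt8a each gave 1 of the lower counts as a bound. The list medians of -1.59 and -0.87 moved to -0.70 and -0.02 without scaling and to -0.09 and -0.14 after normexp and quantile normalization, with 2 and 0 lower in both cases. Ugt1a6b, of the subfamily that conjugates phenols and bilirubin, had levels of 51.3 and 56.0 with vehicle and 3.99 and 24.2 after AOM, or 12.9-fold and 2.31-fold lower. Ugt1a10 had levels of 1.46 and 1.34 and then 0.151 and 0.926, 9.65-fold and 1.44-fold lower. The Ugt1a genes share most of their exons, and the accessions of 3 of their 5 probes name more than a single gene, so a value cannot be ascribed to a single Ugt1a transcript. Between the AOM arrays, Ugt1a6b was 6.06-fold and Ugt1a10 6.12-fold higher on that labelled Pla2g3-/-, where 15.1% of all genes were higher and 12.9% lower.

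A list of 10 genes was drawn up for the supply of UDP-glucuronate. It also held Uxs1, Slc35b1 and Slc35d2, so it does not measure that supply alone. In the Pla2g3+/+ pools 3 of the 10 were lower and none higher after AOM, with a median of -0.65. In the Pla2g3-/- pools 1 was lower and 1 higher, with a median of -0.37. With 22.4% of all genes lower in the Pla2g3+/+ pools and 15.1% in the Pla2g3-/- pools, these counts are near those of the whole array. Ugdh, which oxidizes UDP-glucose to UDP-glucuronate, had levels of 24.5 and 22.8 with vehicle and 3.57 and 14.1 after AOM, or 6.87-fold and 1.62-fold lower. Ugp2, which makes UDP-glucose, was 2.85-fold and 1.29-fold lower. Slc35d1, which carries UDP-glucuronate into the endoplasmic reticulum, was 1.83-fold and 1.35-fold lower. The largest fold in this list, in either genotype, was that of Ugdh in the Pla2g3+/+ pools.

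Among 8 genes for deglucuronidation and export, 4 were higher and 3 lower after AOM in the Pla2g3+/+ pools, and 2 were higher and none lower in the Pla2g3-/- pools, with medians of 0.63 and 0.62, beside 15.1% and 9.65% of all genes higher and 22.4% and 15.1% lower. Gusb, the lysosomal β-glucuronidase, had levels of 1.41 and 1.73 with vehicle and 5.20 and 1.79 after AOM, or 3.69-fold and 1.04-fold higher. Abcc4, an exporter of organic anions, was 13.5-fold and 4.20-fold higher, and Abcc1, of the same family, 3.53-fold and 3.66-fold higher. Abcc2, the exporter of conjugates at the apical membrane, was 15.3-fold and 1.78-fold higher. Abcg2, another apical exporter, was 5.23-fold and 1.47-fold lower. The genes over 2-fold higher after AOM with both genotype labels were Abcc1 and Abcc4.

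Of 23 listed regulators of UDP-glucuronosyltransferase genes, 22 had a value in the Pla2g3+/+ pools, with 8 lower and 3 higher after AOM, and 23 in the Pla2g3-/- pools, with 2 lower and 3 higher. The medians were -0.79 and 0.14, and the shares of all genes those just given. The 2 that were over 2-fold lower in both were Cdx2, a transcription factor that specifies intestinal epithelium, and Nr1i2, the xenobiotic receptor PXR. Cdx2 had levels of 9.07 and 12.3 with vehicle and 0.751 and 2.20 after AOM, or 12.1-fold and 5.61-fold lower. Nr1i2 had levels of 1.66 and 1.60 and then 0.216 and 0.667, or 7.71-fold and 2.39-fold lower. Hnf4a, a nuclear receptor of liver and gut epithelium, differed by -0.93 and 0.38 on the log2 scale. Nr1h4, the bile acid receptor FXR, was 9.02-fold and 1.47-fold lower and Ppara, a receptor for fatty acids, 13.4-fold and 1.78-fold lower. Over 2-fold higher in both were Ahr, the receptor for aromatic hydrocarbons, by 2.87-fold and 2.48-fold, and Esr1, an estrogen receptor below background with vehicle, by at least 27.1-fold and at least 5.60-fold.

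Cell type markers differed between the AOM pools, and part of them moved with the members. Of all genes, 22.4% were over 2-fold lower and 15.1% higher after AOM in the Pla2g3+/+ pools. In the Pla2g3-/- pools 15.1% of all genes were lower and 9.65% higher. All 13 colonocyte markers on the array were lower after AOM in the Pla2g3+/+ pools, with a median of -3.17, and in the Pla2g3-/- pools 6 were lower and 1 higher, with a median of -0.88. All 8 goblet cell markers were lower in the Pla2g3+/+ pools and 6 in the Pla2g3-/- pools, with medians of -3.42 and -1.30. The summed level of the colonocyte list was 1129.6 and 1069 on the vehicle arrays, 136.9 on the Pla2g3+/+ AOM array and 600.2 on the Pla2g3-/- AOM array. The 2 brightest colonocyte markers were Lypd8, a protein of the apical surface, at -1.98 and 0.03, and Guca2a, the precursor of guanylin, at -5.92 and -1.40, and the 1 over 2-fold higher in the Pla2g3-/- pools was the chloride exchanger Slc26a3. All 10 smooth muscle markers were lower in the Pla2g3+/+ pools and none in the Pla2g3-/- pools, with medians of -4.34 and -0.09. All 10 Wnt targets that are raised in colon tumors were higher in the Pla2g3+/+ pools and none in the Pla2g3-/- pools, with medians of 3.36 and -0.60. Pan-epithelial markers had medians of -0.48 and 0.07, leukocyte markers of -0.19 and -0.58 and squamous epithelium markers of -0.15 and 0.20. The leukocyte and squamous medians hide wide differences in both directions. Of the leukocyte markers, 3 were higher and 2 lower in the Pla2g3+/+ pools, and 3 and 3 in the Pla2g3-/- pools. S100a8 differed by 7.62 and 1.05 and S100a9 by 7.32 and 1.32. Of the squamous markers, 2 were higher and 3 lower in the Pla2g3+/+ pools, and 4 and 2 in the Pla2g3-/- pools. Krt5 differed by -1.08 and 8.21 and Krt14 by 3.79 and 5.18. In whole tissue, fewer cells of a type and less RNA per cell cannot be told apart, and the part of cell composition in the members' differences was not tested.

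**Figure D5:**
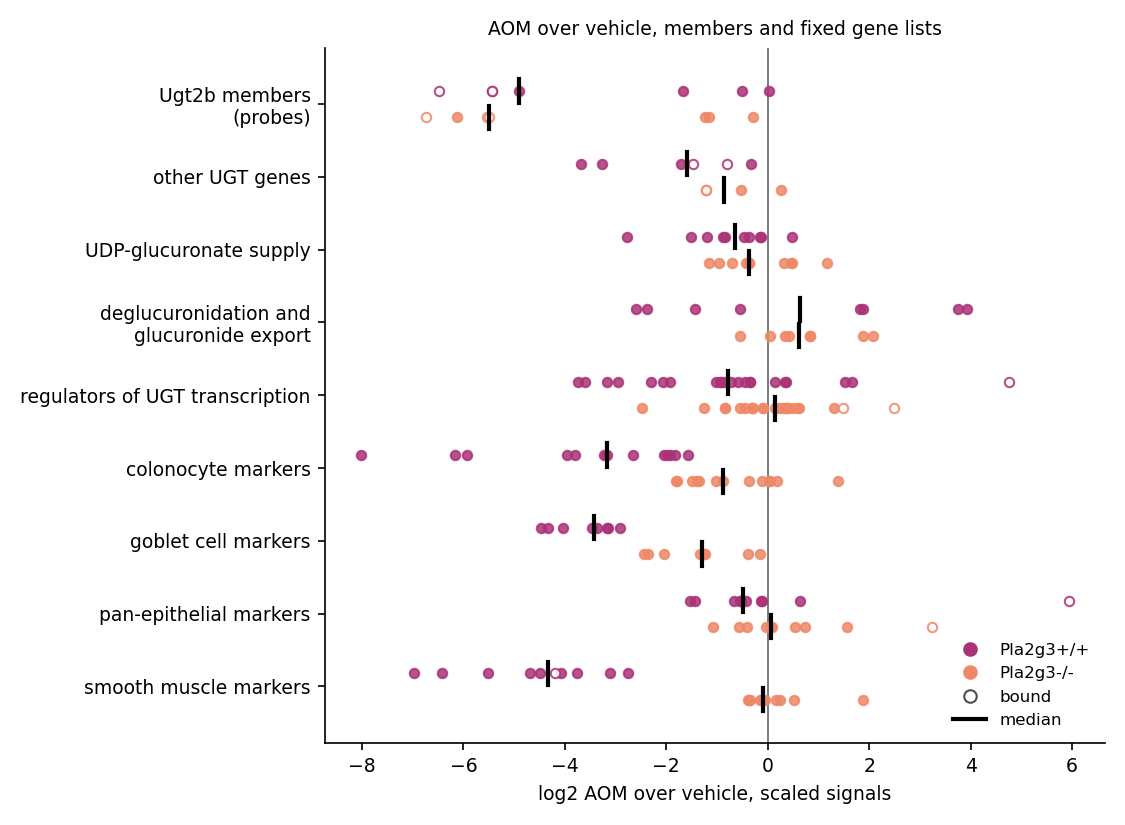
Log2 difference between AOM and vehicle for the member probes and for the genes of 8 fixed lists, by genotype label, with open circles for bounds and bars for medians. The median of the members is -4.90 with the Pla2g3+/+ label and -5.50 with the Pla2g3-/- label, which restates how they were chosen, and 3 of the 7 values on each side are bounds. The medians of the colonocyte, goblet cell and smooth muscle lists are -3.17, -3.42 and -4.34 with the Pla2g3+/+ label and -0.88, -1.30 and -0.09 with the Pla2g3-/- label.

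Markers of other organs were present on some arrays. The 10 hepatocyte markers summed to levels of 5.38 and 10.9 on the arrays labelled Pla2g3+/+ and Pla2g3-/- vehicle and 5.01 and 4.11 on the AOM arrays, with 6 of 10 over 2-fold higher on the Pla2g3-/- than on the Pla2g3+/+ vehicle array, where 1.92% of all genes were higher and 1.32% lower. After AOM, 22.4% of all genes were lower and 15.1% higher in the Pla2g3+/+ pools, and 15.1% and 9.65% in the Pla2g3-/- pools. Of the hepatocyte markers with a value, 4 of 8 were lower and 2 higher after AOM in the Pla2g3+/+ pools. In the Pla2g3-/- pools 6 of 9 were lower and none higher, and the medians were -1.10 and -2.90. The brightest of them were Ttr, transthyretin, at -1.45 and -0.17, and Apoa2, an apolipoprotein, at -0.75 and -0.77. Those over 2-fold higher in the Pla2g3+/+ pools were Alb, serum albumin, and Serpina1a, a plasma protease inhibitor, at 6.40 and 1.09. The 10 exocrine pancreas markers summed to 32.2 and 67.3 with vehicle and 2.37 and 6.63 after AOM, and 8 of 10 were higher on the Pla2g3-/- than on the Pla2g3+/+ vehicle array. After AOM, 4 of 7 with a value were lower in the Pla2g3+/+ pools and 10 of 10 in the Pla2g3-/- pools, with medians of -1.82 and -5.34. The brightest were Cela1, an elastase, at -3.40 and -1.26, and Clps, colipase, at -4.43 and -3.36. With vehicle, Cela1 had levels of 16.5 and 13.2 and Clps of 15.3 and 10.2, so they carried most of the Pla2g3+/+ sum. Both lie outside the 8 that were higher on the Pla2g3-/- vehicle array. Amy2a5, of those 8, was below background on the Pla2g3+/+ vehicle array and had a level of 34.7 on the Pla2g3-/- vehicle array. The Pla2g3-/- AOM differences of the list are taken against that array. Liver and pancreas markers thus moved down with the members in part, and their part in the AOM differences of the members was not tested. The array labelled Pla2g3-/- vehicle had the higher levels of Ugt2b5, Ugt2b36, Ugt2b37 and Ugt2b38, by at most 1.39-fold, and the part of other tissue in that difference was not tested either.

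Of 10 small intestinal enterocyte markers, 4 were lower and 1 higher after AOM in the Pla2g3+/+ pools and 4 lower and 5 higher in the Pla2g3-/- pools, with medians of -3.84 and 1.13. Of all genes, 22.4% were lower and 15.1% higher in the Pla2g3+/+ pools, and 15.1% and 9.65% in the Pla2g3-/- pools. Fabp1 and Fabp2, fatty acid binding proteins of absorptive cells, were among the enterocyte markers lower in both. Fabp2 had levels of 133 and 156 with vehicle and 0.614 and 6.10 after AOM, and Fabp1 levels of 0.188 and 0.683 with vehicle and signals below background after AOM. The 5 enterocyte markers higher in the Pla2g3-/- pools were Apob, Lct, Mttp, Rbp2 and Treh, with Lct and Treh as bounds. Apob, the apolipoprotein of chylomicrons, differed by -0.80 and 2.41 on the log2 scale. Posterior Hox genes, which mark position along the colon and were chosen after these values were seen, went in different directions. Hoxd13 was 2.61-fold and 6.80-fold higher after AOM, Hoxb13 differed by -0.85 and 0.69 on the log2 scale and Hoxa13 by -0.55 and 0.38, while Hoxc13 was below background on all 4 arrays. The part of the sampled position along the gut in the members' differences was not tested.

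The genes whose pattern over the 4 arrays was nearest to that of a member were sought by the Euclidean distance of log2 levels centered on their mean. For Ugt2b34, the member with the highest vehicle level, the nearest of 15471 genes were Cplx2, Nat2, Clstn1, Sox5, Wfdc1, Abo, Vash1 and Slco2b1, at distances of 0.06 to 0.10. Nat2 is an arylamine acetyltransferase, another conjugating enzyme, and had levels of 1.96, 1.86, 0.605 and 1.44 on the arrays labelled Pla2g3+/+ vehicle, Pla2g3-/- vehicle, Pla2g3+/+ AOM and Pla2g3-/- AOM. For Ugt2b38, added as a reference after its values were seen, the nearest of 14788 genes above background on every array were Prap1, Ccl5, B3gnt6, Smim38, Ang, Ffar2, Rgs13 and Gzma, at distances of 0.70 to 1.58. Prap1, a proline-rich protein of the intestinal epithelium, had levels of 6.33 and 7.07 with vehicle and 0.263 and 0.0784 after AOM. Ffar2, a receptor for short-chain fatty acids, had levels of 2.16 and 2.11 and then 0.0901 and 0.120. B3gnt6, a glycosyltransferase of intestinal mucin, had levels of 1.75 and 2.15 and then 0.0618 and 0.0840. Ccl5, at rank 2, had levels of 8.997 and 8.351 with vehicle and 0.485 and 0.196 after AOM. Gzma, at rank 8, had levels of 7.36 and 9.45 and then 0.749 and 0.104. Nat2, Prap1, Ffar2 and B3gnt6 were picked for description from the genes named. A common function or cell type among the nearest genes was not tested for either reference. With 4 arrays, such likeness is a description of these pools and carries no test.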

How the data were processed

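RNA from 4 pools of mouse colon was hybridized to 4 one-color Agilent arrays on 1 slide, 1 array per group. Per the file headers, the authors deposited Feature Extraction 11.5.1.1 spot intensity, subtracted for background and detrended but not scaled between arrays. The deposited value table holds a linear ratio of each intensity to the 75th percentile of its array, with a divisor that was constant over 44397 spots of each array. Groups were those of the deposited labels.

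Control and outlier spots were left out, log2 intensities of replicate spots were averaged and the 75th percentile was subtracted. Comparisons are differences between pairs of arrays with 2-fold as the threshold. Of 39429 probes, 31372 matched 22371 genes of the RefSeq table for GRCm38.p6, which was used for names and promoters only. A gene was its brightest probe. With 1 array per group no pair of arrays allows a test. An additive model over all arrays, with 1 residual degree of freedom, was not run, since the members were chosen on the treatment difference. The number of arrays limits the precision.

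The members, the 15 gene lists and the motifs were chosen with earlier results of these data known. Named genes were all member probes, any gene of the 5 pathway and neighbor lists and, from the marker lists that are described by gene, the 2 brightest over the 4 arrays and some of those against the list's median. Further marker genes were named where a median or the first named genes hid differences. For likeness, the 8 nearest genes to the brightest member were named. The values of 1 listed regulator and its motif are not reported here. The neighbor list lost 1 gene that the RefSeq table puts on another chromosome. The posterior Hox genes, the likeness to Ugt2b38 and the promoter run were added after the values were seen.

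The comparison of pairs was tested on simulated data with known changes. Alternatives were no scaling, scaling by the median or by pan-epithelial markers, quantile normalization, normexp with an offset of 50, other filters on dim probes, outlier spots kept, thresholds of 1.5-fold and 4-fold, the deposited value table and, for lists, a mean over the probes of a gene. Tools were R 4.3.3, limma 3.58.1, Python 3.11.15, numpy 2.4.6, pandas 2.3.3, Biopython 1.88 and matplotlib 3.10.9.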

Additional observations from a re-analysis of the deposited data

Results flagged for a closer look

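The dimmer Ugt2b35 probe stood out because its difference between AOM and vehicle went in opposite directions with the genotype labels, at 0.02 on the log2 scale with Pla2g3+/+ and -1.16 with Pla2g3-/-, a gap of -1.18. Its Pla2g3+/+ value is within the noise of spots, and its sign there was not the same under every scaling. Among the neighbors of the cluster, Sult1e1 stood out for the same reason, at -3.14 as a bound with Pla2g3+/+ and 2.60 with Pla2g3-/-, a gap of 5.74. Neither difference between genotypes was tested, since each group has 1 array.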

How the results depend on the processing

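The counts of members past 2-fold were computed under 11 alternatives for each comparison and direction, 88 values in all, of which 78 stayed within 1.5 times the count given. Restricting the comparison to probes above background on both arrays left 2 lower probes in the Pla2g3+/+ and 3 in the Pla2g3-/- AOM comparison, because it drops the bounds. The lower count was 4 with Pla2g3+/+ without scaling and when scaled by pan-epithelial markers, where Ugt2b34 was lost, and 4 with Pla2g3-/- without scaling and after normexp and quantile normalization, where both Ugt2b35 probes were lost. Without scaling, 1 probe, the dimmer of Ugt2b35, was higher after AOM with Pla2g3+/+. Between genotypes after AOM, the count of lower probes was 0 after normexp and quantile normalization, 3 at 1.5-fold, 0 at 4-fold and 3 when scaled by pan-epithelial markers, and the count of higher probes was 2 with no filter on dim probes, 0 at 4-fold and 0 when scaled by pan-epithelial markers. When scaled by pan-epithelial markers, Ugt2b38 and the brighter Ugt2b35 probe joined the dimmer as lower, and Ugt2b34 was lost as higher. After normexp and quantile normalization the dimmer Ugt2b35 probe was lost as lower. With no filter on dim probes, Ugt2b36 was added as higher, although it was below background on both AOM arrays. Why these scalings differ was not tested. Without scaling, the median of all probes moved by 1.05 and 0.83 on the log2 scale in the Pla2g3+/+ and Pla2g3-/- AOM comparisons. Across the scaling, background and filter alternatives, Ugt2b5 ranged from -8.77 to -3.87 with Pla2g3+/+ and from -8.99 to -4.21 with Pla2g3-/-, Ugt2b36 from -7.59 to -2.77 and from -6.62 to -2.98, Ugt2b37 from -5.96 to -2.67 and from -6.29 to -2.95, and Ugt2b38 from -4.93 to -3.31 and from -6.22 to -3.96. All 4 stayed over 2-fold lower in both wherever they had a value, and the filter on both arrays gave none for Ugt2b5, Ugt2b36 and Ugt2b37. Of the other values, single probes and lists, 1771 stayed within the spread or count given and 488 moved. No paired analysis was possible because the groups share a single replicate number, with 1 array each, and for the same reason no array could be left out.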
